A study of Homo sapiens with 6 samples.

Results

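The genes of the TRAIL and FAS death receptor pathway were followed in HT1080 cells labelled as TOP3B knockout and in wild-type (WT) HT1080 cells. The set holds 10 genes chosen by symbol: the TRAIL receptors TNFRSF10A and TNFRSF10B, the decoy receptors TNFRSF10C and TNFRSF10D, the ligand TNFSF10, the receptor FAS, the adaptor FADD, the initiator caspases CASP8 and CASP10, and the inhibitor CFLAR. Of these 10 genes among 35819 in both tables, 8 had a row, 7 had a count above 0 in some library, and 5 passed the filter on low counts and were tested. FADD and TNFRSF10D had no row in the tables used and are not analysed here.

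HT1080 is a human fibrosarcoma line with fibroblast-like shape. The compared groups were 3 libraries of TOP3B knockout (TOP3B_KO) cells, made with CRISPR and a guide RNA to exon 2 (named E2-2 in the series text), and 3 libraries of WT cells. TOP3B is the gene of topoisomerase III-beta, which relaxes DNA and acts on RNA as well, and the stated aim was to learn its part in R-loops and transcription. Both groups grew in the same serum-containing medium, with no treatment named, and total RNA was sequenced after ribosomal RNA depletion. All TOP3B_KO libraries carry that same name, and whether E2-2 is a single clone is not stated, so a difference is one between E2-2 cells and WT cells. The WT titles number their replicates. The TOP3B_KO titles do not, so those replicates are numbered here in the order of their titles. Since no label says whether the libraries came from separate cultures, the p-values below rest on library-to-library spread that may be technical.

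TRAIL and FAS ligand kill cells by clustering receptors that carry a death domain in their cytoplasmic tail. The clustered tails recruit FADD, which gathers the initiator caspases into a death-inducing complex, where they activate each other and then cleave executioner caspases. Decoy receptors bind TRAIL without passing on the death signal, and CFLAR, a caspase relative without protease activity, takes caspase-8's place in the complex. Some cells need a mitochondrial step to die by this route, in which caspase-8 cleaves BID and BCL2 family proteins set the outcome.

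The libraries held 18501898 to 20340136 estimated counts in TOP3B_KO and 17919106 to 20475280 in WT. TOP3B itself, the targeted gene, had 407, 383 and 361 counts in TOP3B_KO and 536, 376 and 469 in WT, overlapping groups that did not pass the test. A small edit need not remove a transcript, so these values do not check the labels. TOP3B_KO replicate 3 stood apart: the SD of log2 differences between libraries was 0.66 and 0.641 from it to TOP3B_KO replicates 1 and 2, 0.259 between those 2, and 0.282 to 0.335 within WT. The series text names HCT116, a colon line, once for the WT cells. Of 15 epithelial and colon markers, 14 had rows, with a summed level of 111 to 132 CPM in TOP3B_KO and 108 to 119 CPM in WT, most of it KRT8. The colon markers CDX2, KRT20 and GPA33 had 0 counts in all 6 libraries, whereas the mesenchymal VIM was at 11310 CPM (TMM-scaled counts per 1e6 counts) or more in each. Other members of both lists differed from these. KRT8, KRT18, CLDN4 and CDH1 had enough counts to be tested. The mesenchymal COL3A1 had 2 counts summed over each group, and THY1 had 0 in TOP3B_KO and 1 in WT. Over the 15 mesenchymal markers, of which 12 were tested, 1 rose and 4 fell. Of all genes tested 3.21% rose and 4.63% fell. Without TOP3B_KO replicate 3, 13 of these markers were tested, 1 rose and 5 fell, where 5.39% of all genes rose and 7.84% fell. The summed level of the 15 markers was 18067 to 19942 CPM in TOP3B_KO and 28770 to 30048 CPM in WT. Within this sum FN1 averaged 3174 CPM in TOP3B_KO and 11748 CPM in WT. The part of these markers in the results below was not tested. Leukocyte markers summed to at most 1.42 CPM. Abundant transcripts of every cell could be listed low in these tables, such as ENO1 at 8.38 to 12 CPM in TOP3B_KO and 5.41 to 6.66 CPM in WT, scaled to all counts, and PARP1 at no more than 1.21 CPM. A low value or a 0 below is therefore no sign that a gene was off.

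Levels of different genes are compared per length, as the deposited RPKM (reads per kilobase of gene, scaled for library size), and groups are compared in counts or CPM. The length implied by count and RPKM was 25.6 kb for TNFRSF10B, 10.3 kb for TNFRSF10C and 22.0 kb for CFLAR, next to mean genomic spans of their annotated transcripts of 25.6, 10.4 and 22.2 kb. For CASP8 the lengths were 33.6 and 29.7 kb. The deposited RPKM therefore follows genomic spans, introns included, and not spliced lengths.

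Transcripts of the pathway were unequal in level in both groups. TNFRSF10B led at 12.1, 13.8 and 17.3 RPKM in TOP3B_KO and 16.5, 15.4 and 21.5 RPKM in WT, above 97.3% of all rows. CFLAR followed at 3.29, 3.31 and 4.28 RPKM in TOP3B_KO and 3.32, 3.15 and 3.27 RPKM in WT. In every library TNFRSF10B was above CFLAR and CFLAR above TNFRSF10C and CASP8. In WT the decoy TNFRSF10C, at 1.67 to 1.78 RPKM, lay above CASP8, at 0.817 to 0.967 RPKM. In TOP3B_KO the ranges of these genes overlapped, with TNFRSF10C at 0.88 to 1.13 RPKM and CASP8 at 0.536 to 1.12 RPKM. FAS, CASP10 and TNFSF10 stayed at or below 0.112 RPKM in each library, and over the 6 libraries their ranges overlapped. Within WT, TNFSF10 reached at most 0.0104 RPKM, below the lowest values of FAS (0.0118) and CASP10 (0.02). TNFRSF10A was listed at 0 throughout. The order below TNFRSF10B depended on the length. Per kb of the longest spliced coding transcript, CASP8 (2.93 kb) was at 6.14, 11.7 and 12.1 CPM per kb in TOP3B_KO and 11.3, 10.2 and 9.43 in WT. TNFRSF10C (1.72 kb) was at 5.26, 5.39 and 6.4 CPM per kb in TOP3B_KO and 10.9, 10.9 and 10.0 in WT. On this scale the ranges of CASP8 and TNFRSF10C overlapped in both groups. CFLAR (14.67 kb), at 4.94 to 6.07 CPM per kb in TOP3B_KO and 4.88 to 5.08 in WT, was below CASP8 in every library.

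**Figure D1:**
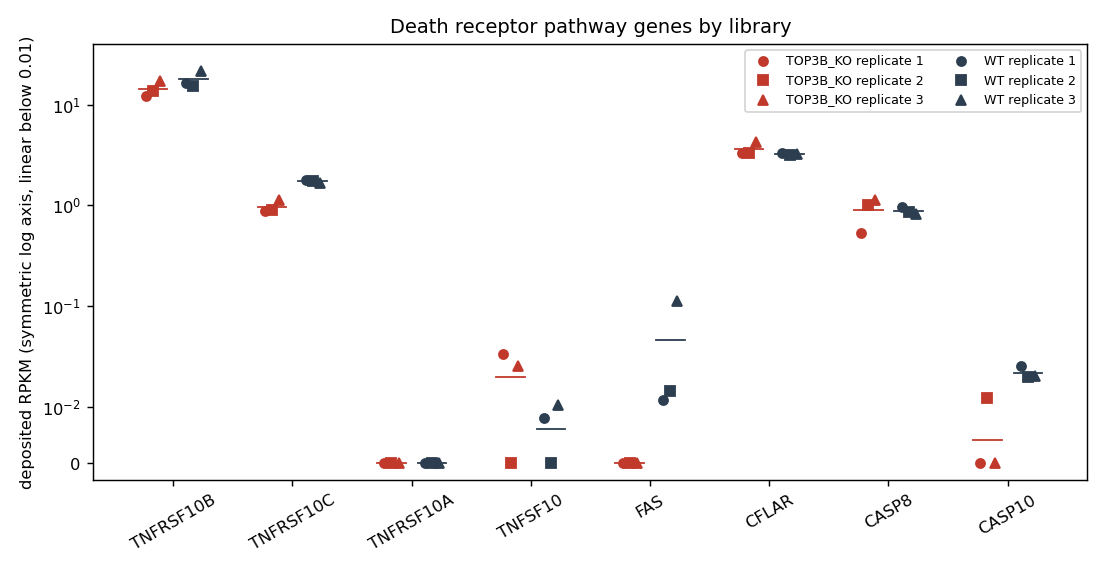
Deposited RPKM of the 8 listed genes (vertical axis, logarithmic above 0.01 and linear below it) in the 3 TOP3B_KO libraries and the 3 WT libraries, with 1 symbol per replicate and a line at each group's mean. TNFRSF10C, FAS and CASP10 are the genes whose TOP3B_KO points all lie below their WT points, CASP8 has 1 low TOP3B_KO library at 0.536 RPKM, and TNFRSF10A lies at 0 in all 6.

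The decoy receptor gene TNFRSF10C was the member that passed the test. TNFRSF10C encodes a TRAIL receptor held in the membrane by a lipid anchor, with no death domain. It had 184, 184 and 215 counts in TOP3B_KO and 329, 369 and 351 counts in WT, which is 9.05, 9.26 and 11.0 CPM in TOP3B_KO and 18.7, 18.7 and 17.3 CPM in WT. The highest TOP3B_KO library lay well below the lowest WT library. Mean levels were 9.77 ± 1.07 CPM in TOP3B_KO and 18.2 ± 0.841 CPM in WT (SD, n = 3 each). TNFRSF10C was thus 1.87-fold lower, and its log2 fold change was -0.90 ± 0.16 (SE; adjusted p = 0.0208 by edgeR's quasi-likelihood test with Benjamini-Hochberg adjustment). Of the 5 members tested, 1 passed, lower in TOP3B_KO, and none passed higher. Among all 13965 genes tested, 7.84% passed, 4.63% lower and 3.21% higher. With DESeq2 the same single member passed, where 15.7% of all genes did, 9.19% lower and 6.56% higher. Without TOP3B_KO replicate 3 the log2 fold change was -1.0 (edgeR adjusted p = 0.0089), in a fit where 13.2% of genes passed, 7.84% lower and 5.39% higher. It stayed between -1.0 and -0.85 with each library left out in turn, but the adjusted p in those fits was below 0.05 only without TOP3B_KO replicate 3. It was 0.0747 and 0.0792 without TOP3B_KO replicates 1 and 2, and 0.0858, 0.0977 and 0.0786 without WT replicates 1, 2 and 3. The TRAIL receptor genes are close paralogs, and how the counting split reads that match several of them is not known here, so their single values are uncertain. In bulk RNA, fewer cells with a transcript and less of it per cell cannot be told apart.

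TNFRSF10B encodes the death-domain receptor through which TRAIL signals in many tumour lines. It had 6287, 7023 and 8173 counts in TOP3B_KO and 7573, 8062 and 11258 counts in WT. TOP3B_KO replicate 3, at 418 CPM, lay above WT replicate 2, at 409 CPM, so the groups overlapped. The log2 fold change was -0.37 ± 0.16 (SE), which did not pass (edgeR adjusted p = 0.207, and 0.0768 without TOP3B_KO replicate 3, where it was -0.50). RHOBTB2, which overlaps TNFRSF10B on the other strand, had 662, 1140 and 320 counts in TOP3B_KO and 957, 1100 and 879 in WT. The library kit keeps strand, but no source used here says whether the counting did.

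TNFRSF10A encodes the other TRAIL receptor with a death domain. It was listed at 0 counts in all 6 libraries, where 3 counts would be 0.147 to 0.162 CPM in TOP3B_KO and 0.147 to 0.167 CPM in WT. As a share of the RPKM of the 3 listed TRAIL receptor genes, TNFRSF10C made up 6.79%, 6.11% and 6.13% in TOP3B_KO and 9.75%, 10.2% and 7.21% in WT. The share was lower in every TOP3B_KO library than in every WT library, with means of 6.34% ± 0.389 in TOP3B_KO and 9.07% ± 1.63 in WT (SD, n = 3 each). It is given without a test, because the members were chosen with results known, and it leaves out TNFRSF10D, the other decoy of this set.

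**Figure D2:**
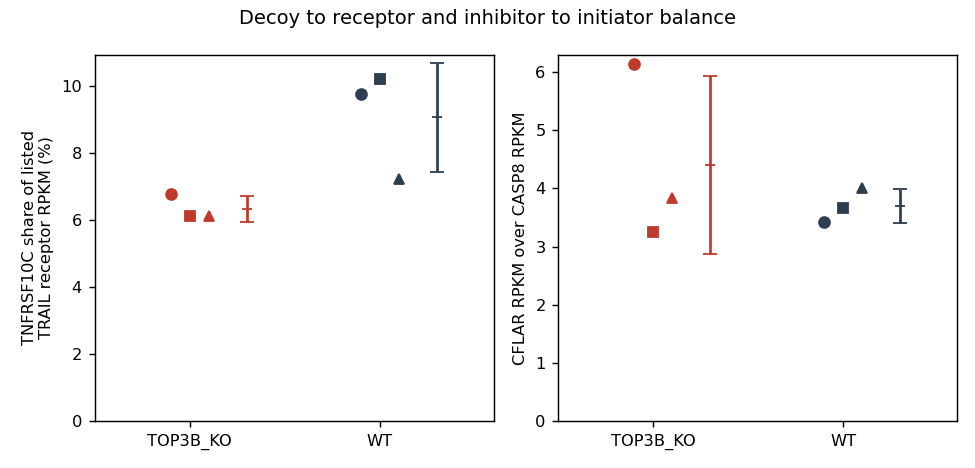
Left, TNFRSF10C as a percentage of the summed RPKM of TNFRSF10A, TNFRSF10B and TNFRSF10C, and right, CFLAR RPKM divided by CASP8 RPKM, with 1 symbol per library and the mean ± SD (n = 3) beside it, for TOP3B_KO and WT. The TOP3B_KO shares sit between 6.11% and 6.79%, below all 3 WT shares, while the ratios of CFLAR to CASP8 overlap. Per kb of the longest spliced coding transcript, CFLAR is below CASP8 in every library.

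The ligand gene and FAS gave few counts. TNFSF10, which encodes TRAIL itself, had 10, 0 and 7 counts in TOP3B_KO and 2, 0 and 3 counts in WT, too few to be tested. FAS, the receptor of FAS ligand, had 0 counts in each TOP3B_KO library and 6, 8 and 55 counts in WT. Summed over groups this is 0 counts in TOP3B_KO and 69 in WT, at least 23.8-fold lower in TOP3B_KO against a floor of 3 counts over that group. WT replicate 3 gave 79.7% of these counts, and without it the bound was 7.48-fold from 14 WT counts. FAS did not pass the filter on low counts, and in a fit with no filter it did not pass the test (edgeR adjusted p = 0.0618). ACTA2, the smooth muscle actin gene that overlaps FAS on the opposite strand, had 374, 255 and 6 counts in TOP3B_KO and 304, 519 and 489 in WT. FASLG, the gene of the FAS ligand, had 0 counts in all 6 libraries.

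The genes of the death-inducing complex did not pass the test. CASP8, the initiator caspase of both receptors, had 366, 679 and 695 counts in TOP3B_KO and 582, 589 and 562 in WT. TOP3B_KO replicate 1 was the lowest of the 6 libraries and TOP3B_KO replicates 2 and 3 were the highest. Means were 29.3 ± 9.76 CPM in TOP3B_KO and 30.2 ± 2.77 CPM in WT (SD, n = 3 each), and the log2 fold change was -0.05 ± 0.26 (SE; edgeR adjusted p = 0.931). It turned to 0.21 without TOP3B_KO replicate 1, to 0.01 without WT replicate 1 and to 0.02 with library size alone as the scaling. CASP10, a close relative of CASP8, had 0, 7 and 0 counts in TOP3B_KO and 13, 11 and 11 in WT. CASP10 and TNFRSF10C were the 2 tested members whose TOP3B_KO libraries were all below the WT libraries. Of all genes tested 17.1% were so, and 33.6% did not overlap in either direction (16.5% higher). CASP10 passed the filter on low counts through its WT libraries alone. Its place in this count was thus partly set by the filter and is no support for a shift of the members. For CASP10 the estimate was -2.32 ± 1.11 on the log2 scale (SE), short of the threshold (edgeR adjusted p = 0.253). It was -6.59 without TOP3B_KO replicate 2, the one with counts (edgeR adjusted p = 0.06), and between -2.41 and -1.76 without any other library.

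CFLAR, the inhibitor in the complex, was the steadiest member in WT. It was at 72.5, 72.6 and 89.0 CPM in TOP3B_KO and 74.5, 71.6 and 72.5 CPM in WT. TOP3B_KO replicate 3 was the high library, and the other 5 lay between 71.6 and 74.5 CPM. CFLAR missed the threshold at a log2 fold change of 0.10 ± 0.12 (SE; edgeR adjusted p = 0.644), which was -0.02 without TOP3B_KO replicate 3. CFLAR-AS1, an antisense gene within CFLAR, had 127, 151 and 199 counts in TOP3B_KO and 133, 127 and 142 in WT. The ratio of CFLAR to CASP8 in RPKM was 6.14, 3.25 and 3.83 in TOP3B_KO and 3.43, 3.66 and 4.01 in WT. The groups thus overlapped, and the high value was that of TOP3B_KO replicate 1, the library with low CASP8. These ratios rest on genomic spans. Per kb of the longest spliced coding transcript, CFLAR was below CASP8 in every library, so which was higher depended on the length.

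The rest of the pathway was read from 6 lists of 79 genes, of which 65 were tested. Of these 4 rose, FAF1, BCL2L1, BBC3 and BIRC3, and none fell, or 6.15% of the tested genes, next to 7.84% of all genes. Without TOP3B_KO replicate 3 the called genes were 5, and with any of the other 5 libraries left out only 1 was called. The median log2 fold change was 0.12, and 0.05 over all genes tested. Among 12 listed other death receptors and ligands, 5 were tested and none passed in edgeR with TMM scaling (median 0.14, and -0.13 without TOP3B_KO replicate 3). TNFRSF21, a death-domain receptor, was at 486, 509 and 450 CPM in TOP3B_KO and 517, 548 and 560 CPM in WT, and TNFRSF25, another, at 31.7, 37.2 and 37.6 CPM in TOP3B_KO and 26.3, 21.9 and 24.6 CPM in WT. Neither pair of groups overlapped, as in 33.6% of all genes tested (17.1% with TOP3B_KO lower and 16.5% higher). The log2 fold changes of -0.17 and 0.55 had edgeR adjusted p of 0.249 and 0.0605. TNFRSF25 passed in 4 of 16 alternatives, which were DESeq2 (adjusted p = 0.00663), limma-trend at both pseudocounts and edgeR with upper quartile scaling. NGFR, the neurotrophin receptor with a death domain, and TNFRSF1B, a TNF receptor without one, were singled out once their values were known. NGFR had 24, 7 and 16 counts in TOP3B_KO and 0 in each WT library. Every TOP3B_KO library thus had NGFR counts, at least 15.1-fold more in sum with 3 counts set as the floor of the summed WT libraries. NGFR was below the filter, and in a fit with no filter it passed (edgeR adjusted p = 0.0342). TNFRSF1B had 0, 0 and 57 counts in TOP3B_KO and 0 in each WT library, so all of its counts came from TOP3B_KO replicate 3, and without that library both groups were at 0.

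FAF1 encodes a protein that binds the tail of FAS. It was at 148, 154 and 136 CPM in TOP3B_KO and 90.3, 98.5 and 103 CPM in WT. The groups did not overlap, as in 33.6% of all genes tested, 16.5% with TOP3B_KO higher. FAF1 was 1.5-fold higher (log2 fold change 0.59 ± 0.10, SE, with edgeR adjusted p = 0.0188). It passed without TOP3B_KO replicate 3 and in no other fit with a library left out, where the adjusted p reached 0.0919. It was the only one of 15 tested complex partners and regulators to pass, in a list with a median of -0.02. RIPK1, a kinase of this list, had too few counts for a test. MLKL, the effector of necroptosis, was at 20.9 ± 0.738 CPM in TOP3B_KO and 17.6 ± 2.54 CPM in WT (SD, n = 3 each) and did not pass.

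For the mitochondrial step, 14 BCL2 family genes were tested. BCL2L1 and BBC3 rose, none fell and 12 did not pass, with a median of 0.25. Of all genes tested 3.21% passed higher and 4.63% passed lower. BCL2L1, which encodes the survival protein BCL-XL, was at 125, 135 and 138 CPM in TOP3B_KO and 84.9, 59.8 and 78.0 CPM in WT. All TOP3B_KO libraries were above all WT libraries, and the log2 fold change was 0.84 ± 0.15 (SE; edgeR adjusted p = 0.0212), a rise of 1.79-fold. BBC3, which encodes the death-promoting PUMA, was at 61.3, 64.2 and 76.3 CPM in TOP3B_KO and 47.4, 44.3 and 47.1 CPM in WT, with a log2 fold change of 0.54 ± 0.12 (SE; edgeR adjusted p = 0.0464). Its groups did not overlap either, and 16.5% of all genes tested had every TOP3B_KO library above every WT library. The BCL2 family genes that rose thus include one that blocks and one that promotes cell death. Of the fits with a library left out, both passed only in that without TOP3B_KO replicate 3, and the edgeR adjusted p reached 0.0798 for BCL2L1 and 0.173 for BBC3. BID, the substrate that links caspase-8 to mitochondria, was at 26.5 ± 1.11 CPM in TOP3B_KO and 33.3 ± 3.73 CPM in WT (SD, n = 3 each) and did not pass.

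None of 12 tested downstream caspases and cofactors passed in edgeR, with a median of -0.04. With DESeq2 1 of them passed, where 15.7% of all genes did. CYCS, the gene of cytochrome c, was at 177 ± 16.4 CPM in TOP3B_KO and 226 ± 4.77 CPM in WT (SD, n = 3 each) (edgeR adjusted p = 0.0725). Without TOP3B_KO replicate 3 it passed, at -0.29 on the log2 scale (edgeR adjusted p = 0.0216). DFFA, the inhibitor of the apoptotic nuclease, was at 64.3 ± 6.39 CPM in TOP3B_KO and 75.9 ± 5.94 CPM in WT and did not pass.

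Of the inhibitors of apoptosis 6 were tested; BIRC3 rose, the other 5 missed the threshold, and the median was 0.35. BIRC3 encodes a ubiquitin ligase of the TNF receptor complex that restrains caspase-8 there. It had 178, 134 and 193 counts in TOP3B_KO and 0 in each WT library, or at least 162-fold higher by the same floor (edgeR adjusted p = 0.00342, and at most 0.0247 with any library left out). Of 13 genes known to regulate the receptor genes none passed in edgeR (median -0.08). With DESeq2 2 of them passed, where 15.7% of all genes did. FOXO3 was at 96.4 ± 10.3 CPM in TOP3B_KO and 138 ± 21.8 CPM in WT, NFKB1 at 80.4 ± 13.1 CPM in TOP3B_KO and 73.7 ± 15.7 CPM in WT (SD, n = 3 each).

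**Figure D3:**
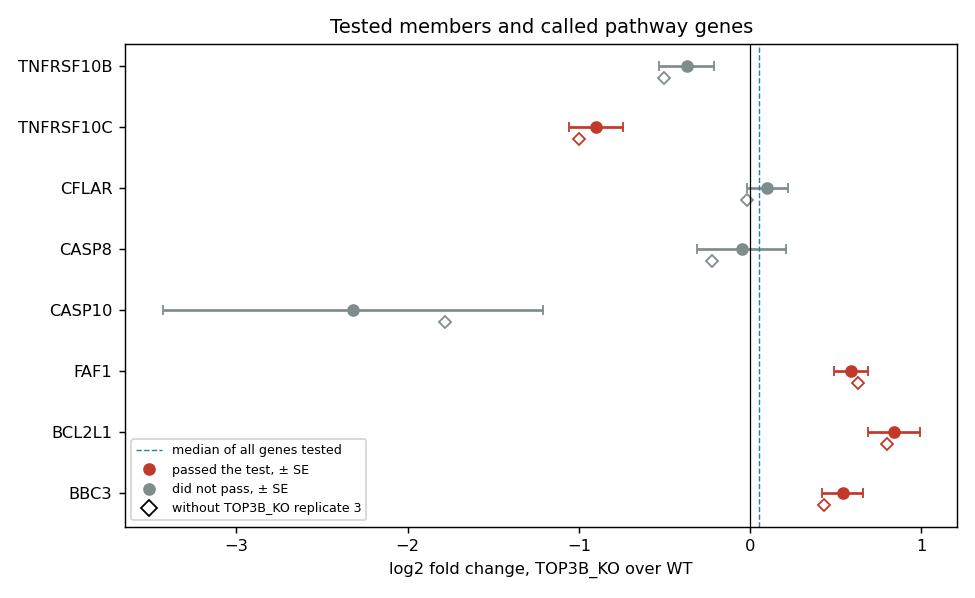
Log2 fold change of TOP3B_KO over WT with its SE for the 5 tested members and for FAF1, BCL2L1 and BBC3, the called pathway genes other than BIRC3, with open diamonds for the fit without TOP3B_KO replicate 3 and a dashed line at the median of all genes tested, 0.05. TNFRSF10C lies at -0.90 and the 3 other called genes lie between 0.54 and 0.84.

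The members lie in 2 gene clusters and at 3 single sites. The 4 TRAIL receptor genes are neighbours on chromosome 8, CFLAR, CASP10 and CASP8 follow each other on chromosome 2, and TNFSF10, FAS and FADD are on chromosomes 3, 10 and 11. Of the other 21 tested genes within 1 Mb of the TRAIL receptor cluster, 13 had a log2 fold change below 0 and 3 fell, with a median of -0.29. Of the 434 tested genes of chromosome 8 outside the members, 222 were below 0 and 32 fell, with a median of -0.02. Of all genes tested 4.63% fell, and the median was 0.05. The 3 neighbours that fell were SLC39A14, a metal ion transporter, BMP1, which processes procollagens, and SLC25A37, a mitochondrial iron carrier. SLC39A14 was at 15.3, 19.9 and 24.8 CPM in TOP3B_KO and 64.1, 51.0 and 41.5 CPM in WT (log2 fold change -1.38, edgeR adjusted p = 0.0194). BMP1 was at 54.1, 63.0 and 68.8 CPM in TOP3B_KO and 106, 103 and 106 CPM in WT (log2 fold change -0.77, edgeR adjusted p = 0.0141). SLC25A37 averaged 259 ± 38.6 CPM in TOP3B_KO and 379 ± 7.25 CPM in WT (SD, n = 3 each; log2 fold change -0.55, edgeR adjusted p = 0.0404). With a library left out the adjusted p of these genes reached 0.0824, 0.0717 and 0.13. Without TOP3B_KO replicate 3, 6 of the 21 fell, 1 rose and the median was -0.39. In that fit 51 of these chromosome 8 genes fell and 30 rose, and of all genes tested 7.84% fell and 5.39% rose. The neighbours' median in single libraries against the WT mean was -0.45, -0.34 and -0.09 in TOP3B_KO replicates 1, 2 and 3. Whether the neighbours have a part in the TNFRSF10C difference was not tested.

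**Figure D4:**
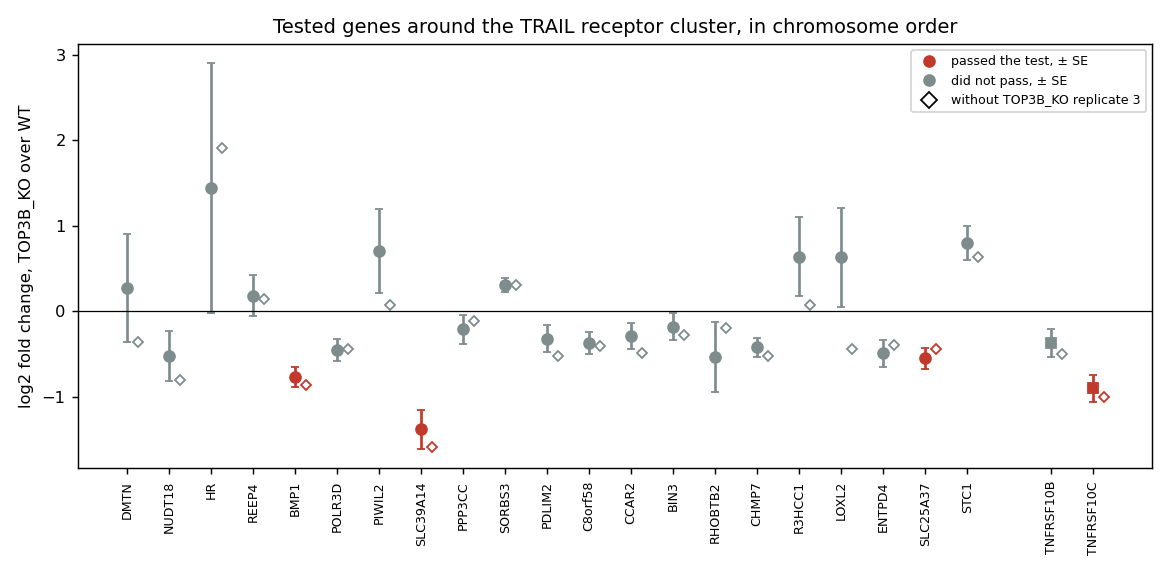
Log2 fold change of TOP3B_KO over WT with its SE for the 21 tested genes within 1 Mb of the TRAIL receptor cluster, in their order along chromosome 8, followed at the right by TNFRSF10B and TNFRSF10C, with open diamonds for the fit without TOP3B_KO replicate 3 in the colour of the fit on all libraries. Of the 21, 13 lie below 0, with a median of -0.29, and SLC39A14, BMP1 and SLC25A37 are the called neighbours. On chromosome 8, 222 of 434 tested genes outside the members lie below 0.

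The caspase cluster differed from that picture in its values. The 21 other tested genes within 1 Mb of CFLAR, CASP10 and CASP8 had a median of 0.09, equal to that of chromosome 2, and 10 lay below 0. CDK15, a kinase of the cyclin-dependent family, was the only called neighbour, at 0.551 CPM in TOP3B_KO and 1.97 CPM in WT (edgeR adjusted p = 0.0354, up to 0.126 with a library left out). Of the 467 tested genes of chromosome 10 outside the members, 307 were below 0. All 8 tested neighbours of FAS were below 0, none passed in edgeR, and their median was -0.37 where that of chromosome 10 was -0.18. Against the WT mean the median was -0.43, -0.1 and -1.04 in TOP3B_KO replicates 1, 2 and 3. Without TOP3B_KO replicate 3 it was -0.45, and IFIT1 (0.42) and KIF20B (0.02) were above 0. FNDC3B, the only called gene of 7 tested near TNFSF10, fell (log2 fold change -0.71, edgeR adjusted p = 0.0347). MYEOV, the only called gene of 7 tested near FADD, rose (log2 fold change 1.26, edgeR adjusted p = 0.0287). With a library left out their adjusted p reached 0.129 and 0.11. Of all genes tested 4.63% fell and 3.21% rose. Neighbour medians were -0.03 near TNFSF10 and 0.43 near FADD, and those of chromosomes 3 and 11 were 0.05 and 0.24. Without TOP3B_KO replicate 3 the neighbour medians were 0.26 and -0.02.

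Across the 6 libraries, the genes with a pattern most like that of TNFRSF10C among 11397 genes averaging 2 CPM or more were CD82, MEF2D and OAZ2, with Pearson's r of 0.9982, 0.9976 and 0.9975 on log2(CPM + 1). CD82, a membrane tetraspanin, was at 81.8, 85.4 and 98.8 CPM in TOP3B_KO and 146, 143 and 138 CPM in WT. The 6 points share the split into the compared groups and the libraries' depth, and many genes were compared, so these values only describe likeness.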

How the data were processed

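Total RNA-seq was measured in 3 TOP3B_KO and 3 WT libraries of HT1080 cells. The authors deposited 1 table of estimated counts per gene, in whole numbers, and 1 of RPKM values. Salmon 1.10.1 and the hg19 build are named in the submitters' processing notes, with no role stated. The tables hold gene symbols and no positions; neighbours were taken from GENCODE v29, and 1 gene named differently in the tables was left out of 35820. After filterByExpr, the counts went into the quasi-likelihood F test of edgeR 4.0.16 with TMM scaling, run in R 4.3.3, adjusting p by Benjamini-Hochberg over 13965 genes at a threshold of 0.05. SEs were derived from the F statistic. CPM uses TMM-scaled library sizes. Floors of 3 counts cover counting error only.

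The members and lists were chosen with earlier results of these data known, so no p is adjusted over the members alone. The rule for named genes took all members, up to 6 called genes per list or else the 2 most abundant, up to 4 called neighbours per site and the 3 genes most like each called member. RIPK1, MLKL, BID, NGFR, TNFRSF1B and FASLG were named outside this rule, with their values known. Alternatives were DESeq2 1.42.0, limma 3.58.1 (voom, and trend on log2(RPKM + 1) or log2(RPKM + 0.1)), other scalings and filters, robust dispersion, each library left out, and windows of 500 kb in place of 1 Mb. Levels per spliced length were added after seeing the data. The tests were also run on simulated data. These had the same dispersion for all genes and no outlying library, unlike the data here, so nothing is concluded from that run.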

Additional observations from a re-analysis of the deposited data

How the results depend on the processing

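The call of TNFRSF10C held with DESeq2, limma-voom, limma-trend at both pseudocounts, each scaling, filter and robust dispersion, with adjusted p between 1.03e-05 and 0.0977 over all 16 alternatives. The number of members called was 0 or 1 with a library left out and 1 in the other alternatives. The number of all genes called was 223 to 1899 with a library left out and 2199 with DESeq2, against 1095. Among the pathway lists 4 genes were called, 10 with DESeq2, and 1 to 5 with a library left out. BIRC3 passed in all 16 alternatives, whereas FAF1, BCL2L1 and BBC3 each passed in 1 of the 6 fits without a library, that without TOP3B_KO replicate 3, and BBC3 also missed the threshold with limma-voom (adjusted p = 0.0508) and with no filter (0.0672), FAF1 with limma-trend at a pseudocount of 0.1 (0.0765). CASP8 turned to 0.02 with library size alone and lay between -0.22 and 0.21 with a library left out, and CFLAR between -0.02 and 0.15. CASP10 lay between -6.59 and -1.76 with a library left out and at -3.35 with limma-voom, and did not pass. On CPM in place of RPKM the TNFRSF10C share was 2.65% in TOP3B_KO and 3.85% in WT. The ratio of CFLAR to CASP8 on CPM was 2.89 in TOP3B_KO and 2.42 in WT. CPM is not divided by length, so a share or ratio between genes on it also depends on their lengths. Per spliced length CFLAR lay below CASP8 in every library. The neighbourhood median of the caspase cluster was 0.02 at 500 kb and 0.00 to 0.19 with a library left out. The median of all genes was 0.11 with library size alone and 0.05 in the fit reported. No paired analysis was possible because only WT titles number the replicates, so nothing ties a TOP3B_KO library to a WT one. FAS, TNFSF10, CASP10 and TNFRSF10A had at most 69 counts per group, which limits their precision; whether depth or the counting keeps them low was not tested.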
